A study of Drosophila melanogaster with 2 samples.

Results

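Of the 4195 chameau-eGFP binding peaks of the conservative list on the 7 chromosome arms, 546 (13%, 95% Wilson interval 12 to 14.1%) were intergenic: their summit lay in no annotated gene and more than 500 bp from every protein-coding transcript start. They were chosen by position alone, from the dm6 coordinates of the peaks and the Ensembl gene models with transposable elements left out. The other peaks comprised 2159 at promoters, 1206 in introns and 284 in exons. Chromatin came from whole Drosophila melanogaster embryos, 0 to 24 h old, of transgenic strain chm-GFP, which carries chameau (chm) fused to eGFP. It was sonicated and precipitated with an antibody against GFP in 2 biological replicates of 1 group, so no genotype, treatment or stage was set against another. In whole embryos of mixed age the cell types and times behind a peak cannot be told apart, and the driver of the transgene is not given in the sources used here. Peak lists hold no read totals, so the depth behind each peak is unknown, and Wilson intervals cover counting error only.

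Chameau belongs to the MYST histone acetyltransferases, enzymes that add acetyl groups to lysines of histone tails. Genetic work links it to Polycomb group silencing and to JNK signalling. Intergenic DNA of the fly holds enhancers, which act on starts at a distance, insulator elements and Polycomb response elements. Proteins such as GAGA factor bind short words at many of them.

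Sequences around some of the strongest intergenic summits are given here. All are on the plus strand of dm6, from the RefSeq genome, 201 bases each with the summit at base 101. Capitals mark the words GAGAG, then GTGGCGC, and also CACTGA, each in either orientation, whose frequencies are given further on. They are a choice from the 10 strongest that could be shown, made to show the marked words beside the highest signals. The strongest of all lay at chr3R:12403044-12403244, upstream of DNAlig3, and holds none of the marked words. The windows upstream of eEF1gamma (chr3R:29214346-29214546), tara (chr3R:16222390-16222590) and sp3 (chr3R:21520268-21520468) rank 3, 4 and 8 of the 546 by pooled signal. Those upstream of jp (chr2L:9567402-9567602) and slp2 (chr2L:3832426-3832626) rank 9 and 11. At slp2, 2 copies of CACTGA face each other across the summit. The sp3 and jp windows each hold 1 copy of GTGGCGC close to it.
DNAlig3: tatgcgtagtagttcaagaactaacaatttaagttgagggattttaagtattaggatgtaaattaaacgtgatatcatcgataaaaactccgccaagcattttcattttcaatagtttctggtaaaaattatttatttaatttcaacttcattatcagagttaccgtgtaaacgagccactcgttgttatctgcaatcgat
eEF1gamma: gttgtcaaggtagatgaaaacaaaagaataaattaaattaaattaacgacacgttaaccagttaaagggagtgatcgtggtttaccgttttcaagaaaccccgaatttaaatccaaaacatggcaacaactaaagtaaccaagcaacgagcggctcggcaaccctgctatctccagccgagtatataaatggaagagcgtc
tara: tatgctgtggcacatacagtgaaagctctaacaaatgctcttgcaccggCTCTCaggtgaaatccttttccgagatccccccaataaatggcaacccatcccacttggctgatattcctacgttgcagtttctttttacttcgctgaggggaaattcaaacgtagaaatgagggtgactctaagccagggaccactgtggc
sp3: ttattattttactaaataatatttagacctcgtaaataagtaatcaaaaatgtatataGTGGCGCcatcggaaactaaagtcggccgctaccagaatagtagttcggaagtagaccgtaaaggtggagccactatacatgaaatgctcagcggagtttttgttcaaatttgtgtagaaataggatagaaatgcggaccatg
jp: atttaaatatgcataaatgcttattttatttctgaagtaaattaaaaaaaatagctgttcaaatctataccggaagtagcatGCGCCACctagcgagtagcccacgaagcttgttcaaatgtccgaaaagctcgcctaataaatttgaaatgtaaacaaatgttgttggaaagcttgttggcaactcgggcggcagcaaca
slp2: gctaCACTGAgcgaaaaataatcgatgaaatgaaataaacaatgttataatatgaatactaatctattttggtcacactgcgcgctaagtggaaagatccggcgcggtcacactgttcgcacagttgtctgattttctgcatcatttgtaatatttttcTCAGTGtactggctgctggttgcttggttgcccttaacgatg

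The DNAlig3 summit lay 1305 bp upstream of this gene for DNA ligase III, inside the 437 bp between the converging genes Sol1 and Cyp9f2. Its pooled signal was 1109, with 538 in replicate 1 and 592 in replicate 2. The eEF1gamma peak, 5726 bp upstream of a subunit gene of translation elongation factor 1, had a pooled signal of 780 (444 and 348 in replicates 1 and 2). It lay 116 bp from the nearer end of a long non-coding RNA gene. Both peaks were well above the median of the 546 in each replicate. The tara peak, 3161 bp upstream of a transcriptional coregulator gene with trithorax group genetics, had 747 (437 and 315). Signals are the peak caller's values, on a scale the sources do not give, so they are read by their order within a list.

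Some of the strongest peaks lay in gaps beside Psc and Su(z)2, neighbouring genes for subunits of Polycomb repressive complex 1. These gaps held 8 intergenic peaks with pooled signals from 65 to 950 (median 111, against 90.5 over all intergenic peaks). Of the 8 summits, 6 lay in thresholded peaks of both replicates, against 38.5% of all intergenic and 45.8% of all conservative peaks. The largest lay between Su(z)2 and CG13323, 11911 bp from the CG13323 start (chr2R:13035227-13035458), with 950 pooled, 517 in replicate 1 and 447 in replicate 2. The next lay 4190 bp upstream of Psc, with 682 pooled, 330 in replicate 1 and 362 in replicate 2. On the other side of Psc, towards CG13321, a peak of 311 had 221 and 92.9. In these 3 peaks the replicates differed least at Psc and most at CG13321.

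Developmental regulators and signalling genes stood beside others of the 20 strongest peaks found in both replicates. A peak of pooled signal 437 lay between slp1 and slp2, forkhead genes of the pair-rule class, 4314 bp upstream of slp2, with 305 in replicate 1 and 123 in replicate 2. One of 379 lay between Glut3, a sugar transporter gene, and the Hox gene abd-A, with 268 and 117. The peak between Ids, a lysosomal sulfatase gene, and sty, whose product inhibits receptor tyrosine kinase signalling, had 319 pooled with 291 and 112. All 3 were higher in replicate 1. Upstream of the homeodomain gene zfh2 on chromosome 4 a peak of 314 had 215 and 103. Upstream of foxo, the forkhead factor of insulin signalling, a peak of 300 was higher in replicate 2, with 81.6 against 212. The peak 604 bp upstream of cpo, an RNA-binding protein gene, had 291 pooled and nearly equal replicates, with 148 and 141.

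Some of the 20 lay in short gaps. The summit near CycB, the gene of a mitotic cyclin, lay in a 1340 bp convergent gap and had 570 pooled, 313 in replicate 1 and 252 in replicate 2. RasGAP1, which restrains Ras, had 468 at 666 bp upstream, with 320 and 142. The peak 752 bp upstream of jp, the junctophilin gene, was higher in replicate 2, with 478 pooled, 159 in replicate 1 and 314 in replicate 2. These 3 gaps were 1340 to 2139 bp long, so the peaks lay close to coding genes on both sides. The remaining members of the 20 were near CG31668 (pooled signal 534), sp3 (478), Boot (411), CG7560 (373) and CG43131 (355). The Boot summit lay 47 bp from the nearer end of the snoRNA host gene Uhg4. At CG43131 the replicates were furthest apart, with 302 in replicate 1 and 66.4 in replicate 2.

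Over all 546 the pooled signal ran from 2.24 to 1109, with a median of 90.5 and quartiles of 70.5 and 125. Of the 100 strongest conservative peaks, 12 were intergenic. The pooled signal was above the median of the whole list at 46.5% of intergenic peaks, against 54.3% of promoter peaks, a difference of 7.76 points (adjusted p = 0.00389 over 6 class comparisons, two-sided Fisher's exact test). The intronic share was 47.1%, a difference of -0.578 points (adjusted p = 0.836, same exact test). Peaks are not independent replicates, so these tests describe the list. The call against promoter peaks was lost when only the stronger 50% of peaks were used (-6.5 points, adjusted p = 0.124, Fisher's exact test).

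The weakest values belonged to peaks at the foot of others. All 31 intergenic peaks with a pooled signal under 30 overlapped another listed peak, with the nearest summit 199 to 281 bp away, and 0 of the 31 lay in thresholded peaks of both replicates. The same counts for weak peaks of other classes are not given, so neither is read as particular to intergenic peaks. In all, 65 intergenic peaks (11.9%) overlapped a listed peak, against 11.3% of all conservative peaks. Their median pooled signal was 32.5, and that of the other intergenic peaks 94.6.

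Intergenic peaks were called in replicate 1 more often than in replicate 2. The thresholded list of replicate 1 held 552 intergenic peaks among 3536 (15.6%) and that of replicate 2 held 414 among 4104 (10.1%), a mean of 12.8% ± 3.91 (SD, n = 2). Of the 546, 136 (24.9%) lay in a peak of replicate 1 only, 70 (12.8%) in one of replicate 2 only and 130 (23.8%) in neither. Promoter peaks showed the opposite order, with 12.5% in replicate 1 only and 18.9% in replicate 2 only. Exonic peaks showed the same order as intergenic ones, with 22.9% in replicate 1 only and 14.8% in replicate 2 only. In the ranked lists the median signal of intergenic peaks was 51.6 in replicate 1 (n = 510 peaks) and 40.8 in replicate 2 (n = 516). Replicate 1 had the higher value at 337 of 497 peaks with both (67.8%, 63.6 to 71.8%). The share was 52.1% of promoter, 61% of intronic and 66.9% of exonic peaks, and 57.6% of all conservative peaks. The scale of each replicate is not given, and its part in this was not tested.

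**Figure D1:**
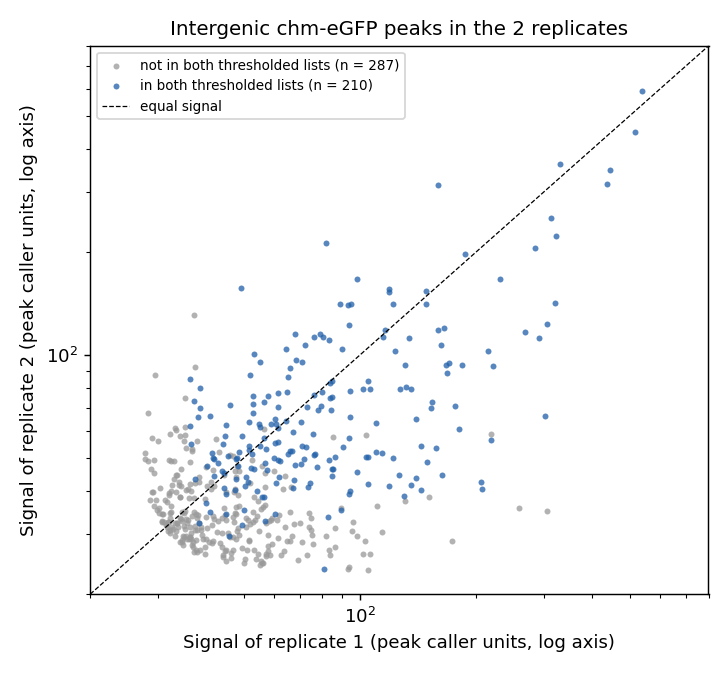
Signal of intergenic peaks in replicate 1 (x axis) and replicate 2 (y axis), both in peak caller units on log axes, for the 497 peaks with a value in each. Each point is a peak, blue where the summit lay in thresholded peaks of both replicates (210) and grey otherwise, and the dashed line marks equal signal; 67.8% of points lie below it.

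Of the intergenic summits, 210 (38.5%, 34.5 to 42.6%) lay in thresholded peaks of both replicates, against 45.8% of all conservative peaks and 52% of promoter peaks. The difference from promoter peaks was -13.5 points (adjusted p = 1.13e-07, Fisher's exact test) and from intronic peaks, at 40.5%, it was -2 points (adjusted p = 0.553, same exact test). The first of these depended on the replicate. Among the peaks of replicate 1's own list the difference from promoter peaks was -30.4 points (adjusted p = 1.59e-35, Fisher's exact test). Among those of replicate 2 it was 2.66 points, with the other sign (adjusted p = 0.504, same exact test). Against intronic peaks the difference was -6.67 points in replicate 1's list (adjusted p = 0.0167) and 10.7 points in replicate 2's (adjusted p = 0.000555) by the same exact test, so its sign turned with the list. Between replicates the 497 signals had a Spearman rho of 0.364 and, after taking log2, a Pearson r of 0.563; these points share libraries and are not independent. The values were over 2-fold apart at 100 of them. The ranked list that pairs the replicates held 24383 intergenic peaks on the arms, of which 2.24% were past the threshold, against 3.93% of all ranked peaks, 14.2% of those at promoters and 3.05% of those in introns.

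Intergenic peaks lay nearer to coding starts than the bases open to them. Their median distance from a protein-coding start was 4643 bp (503 to 40551 bp), with 5182 bp in replicate 1's list and 3334 bp in replicate 2's. Eligible bases, all sequenced positions that meet the same position rule, made up 39.4 Mb or 28.8% of the arms, and shares of them are the measure used next. From over 500 to 1000 bp there were 74 peaks (13.6%) on 5.31% of eligible bases, a 2.55-fold excess (adjusted p = 1.16e-12, exact binomial test, two-sided). From over 1000 to 2000 bp the ratio was 1.65 (79 peaks, adjusted p = 2.82e-05, same exact test). It was 1.25 from over 2000 to 5000 bp (131 peaks, adjusted p = 0.00982) and 1.23 from over 5000 to 10000 bp (123 peaks, adjusted p = 0.0178) by the same exact test. In replicate 2's own list the ratio of that last bin was 0.921 (adjusted p = 0.582, exact binomial test). The calls of both these bins were lost when Y and transposable element bases were left out (ratios 1.14 and 1.16, both adjusted p = 0.0993, exact binomial test). From over 10000 to 20000 bp, 100 peaks gave 1.06 (adjusted p = 0.497), and beyond 20000 bp there were 39 peaks, 0.23 of the number the bases would give (adjusted p = 1.57e-41), by the same exact test.

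In both replicates' lists were 44.6% of the summits at over 500 to 1000 bp and 17.9% of those beyond 20000 bp, with median pooled signals of 94.7 and 81.3. The peak most remote from any coding start lay 40551 bp from rpr, a cell death gene, with 41.6 in replicate 1 and 33.8 in replicate 2. At the edge of the rule, the 17 peaks within the first 100 bp beyond the 500 bp limit had a median pooled signal of 91.7, and the 18 summits outside genes within the last 100 bp before it, which count as promoter peaks, had 120.

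Peaks were also unevenly spread over types of gap. Gaps between coding genes that start away from each other, called divergent, held 191 peaks (35%) on 22.4% of eligible bases (1.56-fold, adjusted p = 4.21e-11, exact binomial test). Tandem gaps held 233 (42.7%) on 51.2% (0.834-fold, adjusted p = 9.89e-05) and convergent gaps 122, 1.03 of the number expected from bases (adjusted p = 0.678), by the same exact test. In replicate 1's own list the tandem ratio was 0.934 and not called (adjusted p = 0.121, exact binomial test). Upstream of the nearest start lay 352 summits (64.5%). Outside coding genes, 48 (8.79%) lay within 500 bp of a non-coding transcript start. For the upstream and non-coding counts no share of eligible bases is given, so neither is read as an excess.

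Annotated transposable elements, mobile sequences that are often packed as heterochromatin, held 3 of the 546 summits (0.549%) although they make up 10.5% of eligible bases (0.0525-fold, adjusted p = 2.77e-21, exact binomial test). Over all conservative peaks the share was 7 of 4195 (0.167%), with 0.139% of promoter and 0.0829% of intronic summits. Summits in annotated transposable elements were thus rare in the whole list. The 3 intergenic ones were nearest to ed, noc and CG10651. Gaps at arm ends, with 4.73% of eligible bases, and the Y, with 6.03%, held 0 of 546, which allows a share of up to 0.549% at 3 counts. Whether reads place as readily in such repeated sequence was not tested.

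Arm 3L carried 172 intergenic peaks (31.5%) on 23.1% of eligible bases, 1.36-fold (adjusted p = 2.59e-05, exact binomial test). The 3L share was 29.9% in replicate 1's list and 31.4% in replicate 2's. Grouped peaks are not independent draws, as this test takes them to be, so the calls by arm describe the list. The gaps from CG44362 to CG7560 and from NijA to CG43245, with 9 peaks each, are on 3L. That from plh to corto, also with 9, is on 3R. Whether a few dense stretches account for the 3L ratio was not tested. The X carried 48 (8.79%) on 13.6%, 0.647-fold (adjusted p = 0.00168, same exact test), with 7.43% and 7.49% in the replicates. Both replicates thus lay on the same side of the base share on each of these arms. The arm shares of all conservative peaks are not given here, so neither ratio is read as particular to intergenic peaks. The ratios of 2L, 2R, 3R and 4 ran from 0.922 to 1.43 and none was called (adjusted p from 0.125 to 0.668, exact binomial test). For 2L this depended on the list: its ratio was 1.44 in replicate 1's own list (adjusted p = 1.64e-05, exact binomial test) and 1.12 in replicate 2's (adjusted p = 0.477). In the pooled list it was 1.22 (adjusted p = 0.00808) and in the stronger 50% of peaks 1.46 (adjusted p = 0.00433), both called by the exact binomial test.

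**Figure D2:**
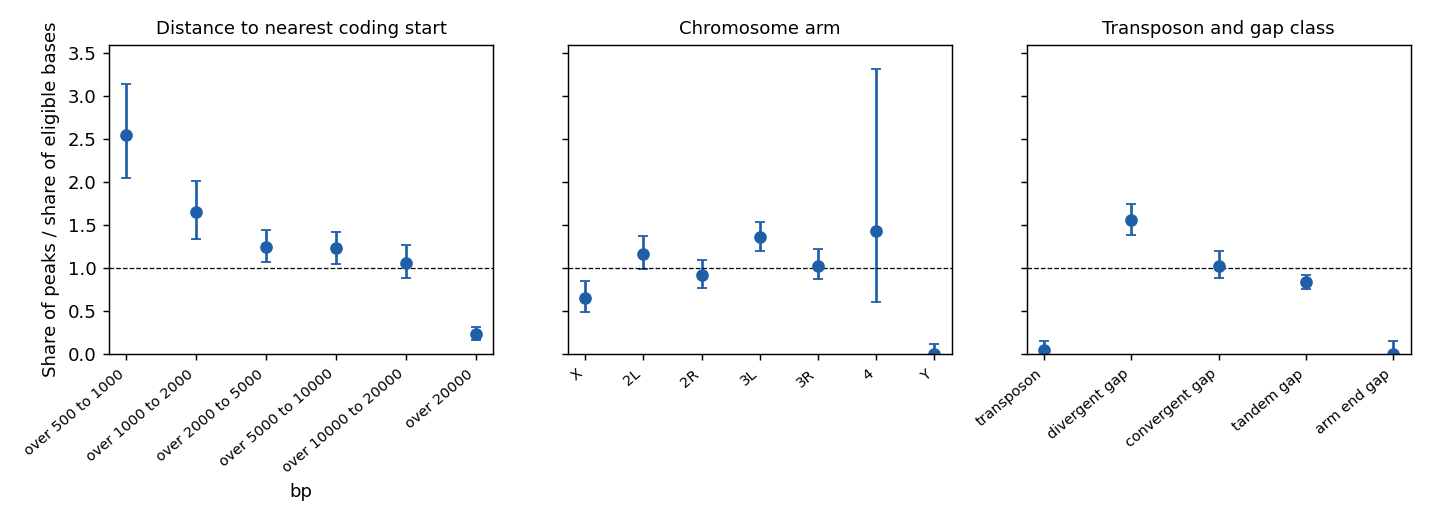
Share of the 546 intergenic peaks divided by the share of eligible bases (y axis, a ratio) by distance to the nearest coding start, by chromosome arm and by transposable element and gap type (x axes). Points are ratios with 95% Wilson intervals of the peak share and the dashed line is 1; the ratio falls from 2.55 nearest to coding starts to 0.23 beyond 20000 bp.

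Intergenic peaks came in groups, though no more often than peaks in general. Another listed peak lay within 5 kb of 342 (62.6%), the same share as among all conservative peaks (62.6%). This was above the 57.1% of promoter peaks (adjusted p = 0.0297, Fisher's exact test) and below the 69.1% of intronic peaks (adjusted p = 0.0169). Both differences were small and were lost in several other settings. In replicate 2's list the difference from promoter peaks was 0.604 points (adjusted p = 0.996, Fisher's exact test), and in replicate 1's that from intronic peaks was -4.19 points (adjusted p = 0.106). The 546 peaks fell in 315 gaps, of which 113 held 2 or more and 47 held 3 or more.

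The 27292 bp between CG44362 and CG7560 held 9, with pooled signals of 58.4 to 373 and 3 in both replicates. The 66747 bp between plh and corto, a chromatin protein gene, held 9 of 63.6 to 277, with 2 in both. The 75047 bp between NijA and CG43245 also held 9, of 9.48 to 184, with 1 in both. The next gaps held fewer. Between hng3 and CG13898 there were 7 (59.5 to 272, 5 in both), between mtSSB and tara 6 (57.4 to 747, 3 in both) and between Ids and sty 6 (86.3 to 319, 4 in both). In the tara gap a single peak exceeded 111, while in the Ids to sty gap 4 of the 6 peaks lay together, from 16345 to 18009 bp beyond the Ids start.

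**Figure D3:**
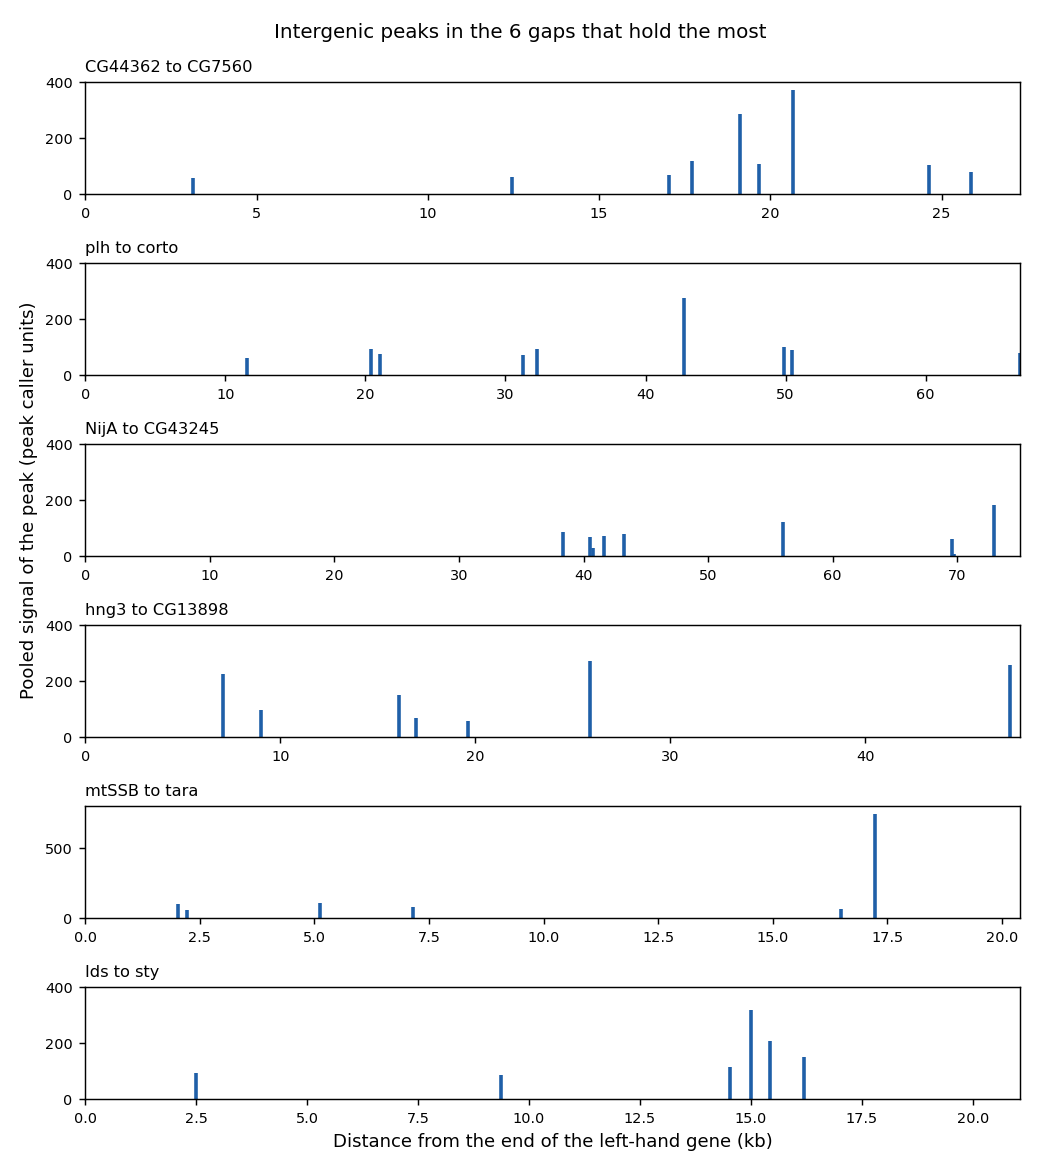
Intergenic peaks in the 6 gaps between coding genes that held the most, placed by distance from the end of the left-hand gene (x axis, kb) with the height of each line giving the pooled signal (y axis, peak caller units; the tara panel has a longer axis). The 9 peaks between CG44362 and CG7560 reach 373 and the peak nearest tara reaches 747.

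The 546 peaks had 355 protein-coding genes as nearest start, which is 2.54% of all 13968, and several lists of developmental regulators had larger shares. Of 29 gap, pair-rule and segment polarity genes, 9 were the nearest gene of a peak (31%): drm, ems, en, hry, oc, odd, ptc, slp2 and wg. Neuron identity genes gave 7 of 21 (33.3%), heart and mesoderm genes 6 of 22 (27.3%), gut genes 4 of 15 (26.7%) and Notch pathway genes 4 of 22 (18.2%). The lists were chosen with earlier results of these data known, developmental genes often stand beside long gaps, and these counts carry no test. Among ptc peaks, upstream of the Hedgehog receptor gene, the strongest had 184 pooled with 102 and 79.5 in replicates 1 and 2. The strongest of D, a Sox gene of neural development, had 226 with 123 and 103. For mid, a T-box gene of the heart, it was 208 with 140 and 65.2, and for Doc2, of the same family, 184 with 89.8 and 104. Dll, the limb selector, had a peak of 212 at 993 bp upstream, with 49.2 and 157. Replicate 1 was higher at ptc, D and mid and lower at Doc2 and Dll.

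The other lists ranged from 18.2% to none. Of chromatin regulators, 4 of 31 (12.9%) were nearest to a peak, namely Psc, corto, ph-d and tara. Limb and wing selectors gave 4 of 22 (18.2%), tracheal genes 2 of 13 (15.4%), eye and head genes 2 of 16 (12.5%), neuroblast genes 3 of 25 (12%), ligands and receptors of the EGF, FGF, Wnt and BMP pathways 3 of 31 (9.68%) and dorsoventral genes 2 of 21 (9.52%). Of the Hox cluster only Dfd was a nearest gene (1 of 12, 8.33%), with 3 peaks of 55 to 103 that lay 16479 to 26945 bp downstream of its start. JNK pathway and closure genes gave 1 of 23 (4.35%), the ETS repressor gene aop, whose stronger peak of 195 had 78.9 and 115, and ecdysone response genes 1 of 18 (5.56%), Hr38. Near or below the share of all genes were cytosolic ribosomal proteins (2 of 93, 2.15%), cuticle proteins (2 of 123, 1.63%) and chemosensory receptors (2 of 179, 1.12%). None of 14 glia and blood genes or 73 mitochondrial ribosomal protein genes was a nearest gene.

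Most intergenic peaks stood beside a gene with no peak of its own at the promoter. Counted per peak, the nearest gene had a promoter peak at 197 of 546 intergenic peaks (36.1%, 32.2 to 40.2%) and at 61.6% of intronic peaks. Among all protein-coding genes, counted per gene, 16.8% had one. The units differ, because the 546 peaks have 355 nearest genes and some genes count more than once. No share of the 355 genes is given, so the 36.1% and 16.8% are not compared. The share was 43.2% at over 500 to 1000 bp and 25.6% beyond 20000 bp. Among the strongest, eEF1gamma (promoter signal 374), Ids (125), CycB (110), zfh2 (110) and foxo (106) had one, and DNAlig3, tara and slp2 had none.

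Words bound by known factors were counted in the 100 bp on each side of a summit, on either strand. GAGAG, bound by GAGA factor, stood in 187 windows (34.2%) and in 109 windows (20%) around a point 1000 bp to the right, a difference of 14.3 points (adjusted p = 1.25e-06, exact McNemar test, two-sided, adjusted over 14 motifs). The share among all conservative peaks was 33.1%, so GAGAG marked these peaks no more than others. In the replicates' own lists 31% and 32.9% of intergenic windows held it. By distance from a coding start, GAGAG was commonest at over 500 to 1000 bp, with 47.3% of 74 peaks. It stood at 27.8 to 33.6% in the bins from over 1000 to 20000 bp and at 41% of 39 peaks beyond, so the share did not fall steadily. Of the 14 motifs, GAGAG alone was called against the flank. The longer GA repeat CTCTCTC, which contains the complement of GAGAG, stood at 6.78% against 3.48%, and CACACA at 23.6% against 18.1%, both short of the threshold (adjusted p = 0.0969, exact McNemar test). Both were called in the pooled list (3.5 points, adjusted p = 0.00427, and 7.12 points, adjusted p = 0.00208, exact McNemar test). All conservative peaks had them at 8.39% and 24.1%.

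Against promoter peaks, 4 motifs were rarer and 3 commoner at intergenic summits. TATCGAT, the core of the element bound by Dref, stood at 10 of 546 (1.83%) against 10.6% of promoter summits (adjusted p = 2.63e-12, Fisher's exact test; 6.25% of all peaks). CGATA, a word of the insulator protein BEAF-32 that can overlap a Dref element, stood at 19.2% against 34.4% (adjusted p = 1.63e-11, same exact test; 27.7% of all peaks). GTCACAC, of the promoter factor M1BP, stood at 2.38% against 7.09% (adjusted p = 4.78e-05, same exact test; 4.72% of all). CAGCTG, an E-box of bHLH proteins, stood at 5.31% against 15.4% (adjusted p = 9.76e-11, same exact test; 12% of all). For these 4 the intergenic share differed from that at the flanking points by at most 0.733 points. GCCAT (32.2% against 27.1%, adjusted p = 0.0447), TGGGAA (13.6% against 9.22%, adjusted p = 0.0114) and AGATAA (11.5% against 8.29%, adjusted p = 0.0462), words of Pleiohomeotic, Su(H) and GATA factors, were higher by Fisher's exact test, beside 28.4%, 10.5% and 10% of all peaks. The flanking points held these at 34.4%, 14.8% and 10.4%, so at none of the 3 was the summit called above its flank. Their calls against promoter peaks depended on the list. By Fisher's exact test GCCAT was 5.05 points higher in replicate 1's own list (adjusted p = 0.0594) and 4.26 in replicate 2's (adjusted p = 0.109), AGATAA 2.75 points in replicate 1's (adjusted p = 0.126) and TGGGAA 3.86 points in replicate 2's (adjusted p = 0.054).

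Against intronic peaks 0 of the 14 motifs was called by Fisher's exact test, with 2 at an unadjusted p under 0.05. CAGCTG, at 5.31% against 8.96%, came nearest (adjusted p = 0.129, same exact test). For GAGAG the shares were 34.2% and 33.6% (adjusted p = 0.84, same exact test). Up to 4 motifs were called when the window was widened to 200 bp on each side, 2 in a window of 50 bp and 1 in replicate 2's list.

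**Figure D4:**
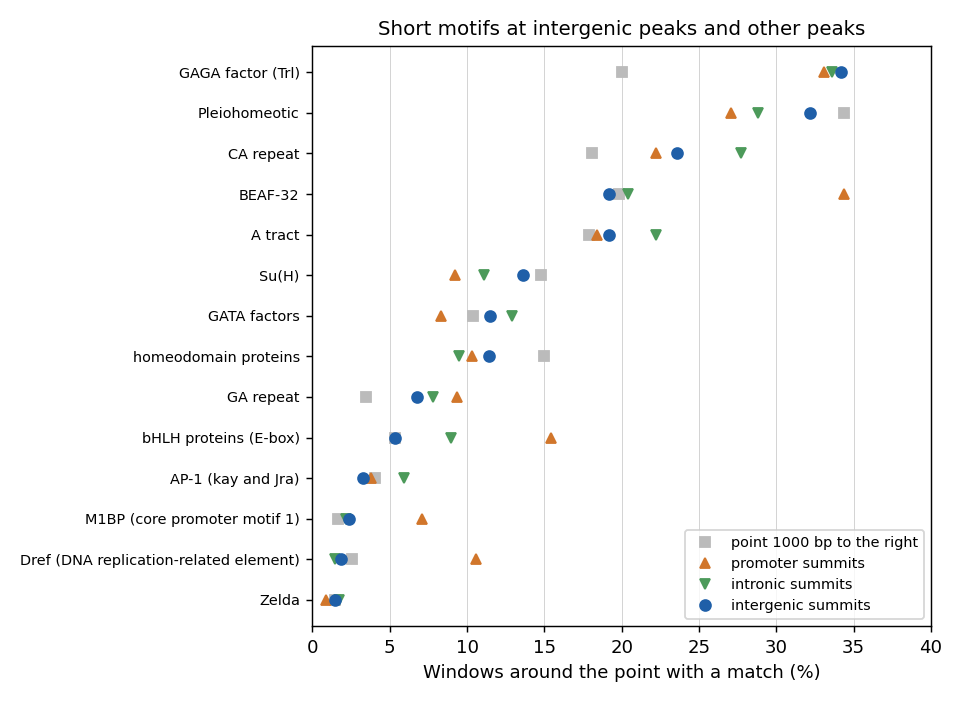
Share of windows of 201 bp with a match to each of 14 motifs, named by the factor (y axis), in percent (x axis), for intergenic (546), promoter (2159) and intronic (1206) summits and for points 1000 bp to the right of the intergenic summits. For GAGA factor all 3 kinds of summit lie above the flanking points, at 33.1 to 34.2% against 20%; for Dref the promoter summits stand apart at 10.6%.

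Further words appeared when all words of 6, 7 and 12 letters at intergenic summits were ranked by their excess over both flanks, a search made after the data were seen and given here without a test. Among words of 6 letters AGTGTA came first, at 95 summits (17.4%) and 46 and 32 flanking points to the right and left. It was followed by ACACTG at 91 summits (43 and 40 flanking points) and by GAGAGA, a form of the GAGA word, at 89 (41 and 38). The fourth, CACTGA, begins the 12-letter word that came first at that length and is the one described here. It stood within 100 bp of 102 summits (18.7%) and of 55 and 54 points 1000 bp to the right and left (10.1% and 9.89%). In the replicates' own lists the shares were 22.6% and 15.5%, at promoter and intronic summits 13.1% and 15.1%, and at ranked intergenic peaks short of the threshold 9.63%. The word had a direction. Within 150 bp there were 168 occurrences from 166 distinct copies, since 2 copies lay between neighbouring summits, and 125 occurrences (74.4%) read towards the summit, with a median start 72 bp before it, whereas copies around the flanking points read towards their centre in 49.4% and 50% of cases. At promoter summits 56.1% and at intronic summits 69.6% read inwards. Copies of its first 5 letters on both sides of the summit, each reading towards it, were present at 50 intergenic peaks (9.16%) and at 6 and 10 of the flanking points (1.1% and 1.83%), with 8.46% at intronic and 4.82% at promoter summits.

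**Figure D5:**
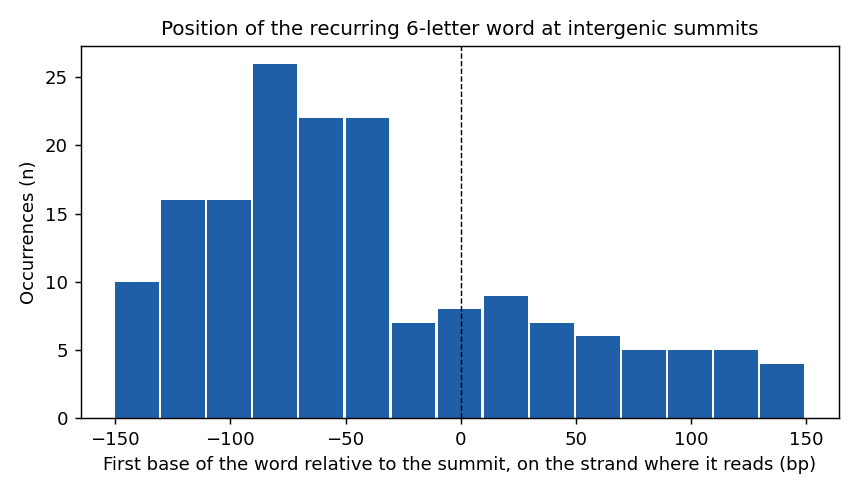
Number of occurrences of the recurring 6-letter word (y axis) by the position of its first base relative to the summit of intergenic peaks (x axis, bp, on the strand where the word reads; bars of 20 bp). Of 168 occurrences, 125 start before the summit and read towards it, with the median of these at 72 bp.

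The longest form of the word recurred letter for letter. A version of 12 letters, in capitals with any other CACTG or CAGTG, stood within 150 bp of 19 intergenic summits (within 100 bp of 17, and of 2 and 0 points to the right and left), from 18 distinct copies: 1 copy lay between 2 neighbouring summits and so read towards one and away from the other. Of the other 17, 16 read towards the summit. Within 100 bp the word stood at 3.11% of intergenic, 2.32% of intronic, 1.06% of exonic and 0.417% of promoter summits. Its share over all conservative summits was 1.36%. Of 36 occurrences within 150 bp of intronic summits, 94.4% read inwards, so the word was not particular to intergenic peaks. The lines give 155 bases from 5 bases before the word, on the strand where it reads, for peaks near noc (chr2L:14502690-14502844, minus strand), hng3 (chr3L:762450-762604, minus), ems (chr3R:13914852-13915006, minus), Rca1 (chr2L:6841473-6841627, minus), odd (chr2L:3600966-3601120, minus) and Dr (chr3R:29567101-29567255, plus). Their summits lie at bases 51, 77, 57, 92, 83 and 92. Outside the 12 letters the sequences differ, and the noc and Rca1 windows hold CAGTG on the far side of the summit. Counted also past the bases shown, a facing CAGTG was present at 9 of the 19 members, among them noc, ems, Rca1 and Dr.
noc: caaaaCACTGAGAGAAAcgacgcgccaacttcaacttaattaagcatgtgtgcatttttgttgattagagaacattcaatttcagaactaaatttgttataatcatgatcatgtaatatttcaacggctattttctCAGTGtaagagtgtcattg
hng3: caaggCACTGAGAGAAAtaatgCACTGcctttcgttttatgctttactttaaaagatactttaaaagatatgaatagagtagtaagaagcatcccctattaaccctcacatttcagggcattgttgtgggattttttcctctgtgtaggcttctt
ems: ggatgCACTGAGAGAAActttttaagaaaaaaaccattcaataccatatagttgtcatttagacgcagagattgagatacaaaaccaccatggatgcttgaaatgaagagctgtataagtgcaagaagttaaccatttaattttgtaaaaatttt
Rca1: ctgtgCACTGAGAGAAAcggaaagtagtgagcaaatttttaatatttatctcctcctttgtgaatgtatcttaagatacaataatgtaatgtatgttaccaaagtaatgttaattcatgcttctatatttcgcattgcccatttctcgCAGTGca
odd: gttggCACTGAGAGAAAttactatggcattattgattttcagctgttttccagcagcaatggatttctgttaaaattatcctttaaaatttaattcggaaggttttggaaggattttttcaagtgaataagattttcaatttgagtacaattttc
Dr: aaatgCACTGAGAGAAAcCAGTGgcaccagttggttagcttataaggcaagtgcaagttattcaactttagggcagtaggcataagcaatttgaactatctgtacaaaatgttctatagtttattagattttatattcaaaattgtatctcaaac

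The zinc finger genes noc and odd, the homeobox genes ems and Dr and the cell cycle gene Rca1 are the nearest genes of peaks with this word. At noc the pooled signal was 233, with 93.1 in replicate 1 and 140 in replicate 2. At ems it was 150 with 75.9 and 76.6, and at Dr 118 with 66.6 and 52.5. All 19 ran from 7.09 to 233 with a median of 118, and 10 were in both replicates' lists. The genome arms hold 688 copies, 3 of them in annotated transposable elements. Within 150 bp of a conservative summit of any class lay 71 of the 688 (10.3%). Of 247 copies in eligible intergenic bases, 18 (7.29%) lay within 150 bp of a conservative summit, where 0.413% of eligible bases lie, so most copies had no peak. GTGGCGC, marked in the sp3 and jp windows, stood at 35 intergenic summits (6.41%) and 11 points on each side (2.01%). It stood at 3.15% of promoter, 2.74% of intronic and 7.04% of exonic summits, and at 3.72% of all. The exonic share was thus above the intergenic one. In the replicates' own lists 5.43% and 6.76% of intergenic summits held GTGGCGC.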

How the data were processed

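Peak lists of 2 chm-eGFP ChIP-seq samples (biological replicates 1 and 2 of 1 group, per the labels) were deposited on dm6, per the file names. Their aligner, peak caller and settings were not given in the sources used here. In the deposited lists the signal is the caller's value per peak, of unstated scale. The deposited score is a scaled value of the irreproducible discovery rate, at least 830 here, and the deposited −log10 columns hold q-values and that rate, which were not tested.

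Computed here with Python 3.11.15, numpy 2.4.6, scipy 1.17.1 and pandas 2.3.3: summits on 7 arms were placed on Ensembl release 115 (BDGP6.54) and RefSeq release 6 sequence; 7 peaks off the arms were left out. Promoter summits were those up to 500 bp from the start of a coding transcript. Replicate values are those of the ranked or thresholded replicate peak that holds the summit, and a peak of one replicate can hold 2 neighbouring summits. With 2 replicates, SDs describe these samples. P-values were adjusted by family after Benjamini and Hochberg, and the threshold was 0.05. Motif windows were 201 bp. The tests were tested on simulated data.

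The members, gene lists (20) and motifs (14) were chosen with earlier results of these data known. Named are the 20 strongest members in both replicates, up to 3 members for each gene list, the 6 gaps with the most members, and as sequences the strongest outside one arm; of these, those shown were picked after their values were seen, as were rpr and the peaks in transposable elements. The 12-letter word search was added after the data were seen. Of the listed gene symbols, 10 were not matched.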

Additional observations from a re-analysis of the deposited data

How the results depend on the processing

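The 43 results were recomputed under those of 14 other settings that bear on each, among them each replicate's own list, which stands for leaving out the other; leaving out the weaker of overlapping peaks and leaving out Y and transposable element bases were chosen after the data were seen. The excess of GAGAG over the flank (9.89 to 14.3 points), of arm 3L (1.26 to 1.42), and the low share of the X (0.547 to 0.676) kept their calls under every setting run for them. No paired analysis was possible because there is 1 group.

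Among the peaks of each replicate's own list, replicate support ran from -30.4 to 2.66 points against promoter peaks and from -6.67 to 10.7 against intronic peaks. That measure still used the lists of both replicates, so neither was left out of it. With a replicate left out, the share above the median signal against intronic peaks was -4.62 to 0.121. Nearness to another peak was 0.604 to 7.39 against promoter and -11.3 to -4.19 against intronic peaks, and 0 to 1 motifs were called against intronic peaks. The over 5000 to 10000 bp ratio ran 0.921 to 1.22 and that of 2R ran from 0.818 to 1.04 with a replicate left out, the convergent ratio was 0.871 to 1, and GAGAG against promoter and intronic peaks was -4.5 to 0.148 and -2.6 to -0.369 with a replicate left out.

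In the pooled list replicate support against intronic peaks was 0.358 points, the signal share 1.06, GAGAG -2.71 against promoter and -1.11 against intronic peaks, the convergent ratio 0.948, and 3 motifs were called against the flank. In the stronger 50% of peaks the signal share against promoter peaks was -6.5, nearness 7.87 against promoter and -4.65 against intronic peaks, CACACA against the flank -0.394, the convergent ratio 0.946, that of 3R 0.933, and 3 distance bins were called. With a 250 bp promoter window nearness was 4.65, 3 distance bins were called, the over 10000 to 20000 bp ratio was 0.989 and the convergent ratio 0.96. With 1000 bp nearness was 1.2 and GAGAG -1.35 and -1.27. With coding genes only as genes, 2 motifs were called against the flank and 1 against intronic peaks, GAGAG was -0.0378 and -0.611, and the ratios of 2R and 3R were 1 and 0.986. Without the weaker of overlapping peaks the signal share against intronic peaks was 0.568 and GAGAG -0.614. Without Y and transposable element bases 3 distance bins were called and 3R was 0.932. At 2 kb nearness against intronic peaks was -3.32. Motif windows of 50 bp gave 4 calls against promoter and 2 against intronic peaks. Windows of 200 bp gave 3 against the flank, 4 against intronic peaks and GAGAG -2.99 and -6.07. The cause of these changes was not tested. Unknown depth and signal scale limit every level given.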
